A study of Mus musculus with 16 samples.

Results

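The genes described here are Hmgcs1, Idi1, Fdft1, Sqle, Lss, Cyp51, Dhcr7 and Insig1, genes of cholesterol synthesis and its feedback control. They were taken by name from the deposited table of mouse brain cortex, in which they are 8 of 36930 gene entries. A value in all 16 pups was given for 7 of the 8, and Insig1 had a value in none. Although the set was put together as synthesis and uptake genes, none of its members takes up cholesterol. The 7 measured members are enzymes and Insig1 is a regulator, and genes of uptake were examined beside them.

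Cortices of 16 C57BL6 pups were sequenced at 7 days of age, with 8 Avil-ChR2 and 8 ChR2-flfl pups. ChR2-flfl pups carry a floxed channelrhodopsin-2 (ChR2), a light-gated ion channel, and have no Cre. Avil-ChR2 pups carry the same floxed channel and in addition Cre driven by the promoter of Avil (advillin), which is active mainly in sensory neurons of the periphery, so that the cortex is not the tissue in which the channel is meant to act. Pups of both genotypes were kept under blue light for 1 h per day from P1 to P5, so that light exposure is shared and only the Avil-ChR2 pups are light sensitive. The labels give 4 females among ChR2-flfl and 5 females among Avil-ChR2 pups. The paper's supplement does not give the same sex for every pup, and the labels were used unless stated. Pup numbers fall into 2 runs, 26 to 33 and 35 to 42, each with 4 pups per genotype. What the runs stand for is not given in the sources used here.

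Cholesterol in the brain is made within the brain, because plasma lipoproteins do not cross the blood-brain barrier, and the first postnatal weeks are a period of high demand by growing neurites, glia and myelin. Synthesis starts from acetyl-CoA and runs through mevalonate, isoprenoids, squalene and lanosterol to cholesterol. When membrane sterol is low, the transcription factor SREBP-2 (Srebf2) is carried by Scap from the endoplasmic reticulum to the Golgi apparatus, cleaved there, and switches on the enzymes of the pathway. Insig1 is a protein that holds Scap back when sterol is plentiful.

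SREBP-2 binds sterol regulatory elements, usually next to a box for the factor NF-Y. The DNA before the start sites is therefore shown for Hmgcs1 and Idi1 and for Lss and Cyp51, pairs whose levels moved together across pups. Between the one pair and the other no correlation passed the permutation test given below. RefSeq promoter sequences (GRCm38.p6, 250 bases before to 50 after a start) were found for 6 of the 8 members, Hmgcs1, Idi1, Lss, Cyp51, Dhcr7 and Insig1. Sqle and Fdft1 had no entry. The DNA of Insig1 is not shown, nor is that of Dhcr7, although its level moved with that of Cyp51. Capitals mark matches to TCACNCCAC, the core of a sterol regulatory element, and to the NF-Y box CCAAT, which reads ATTGG when it lies on the other strand. Both strands were searched and no match overlaps another.
Hmgcs1, chr13:119690101-119690350, plus strand: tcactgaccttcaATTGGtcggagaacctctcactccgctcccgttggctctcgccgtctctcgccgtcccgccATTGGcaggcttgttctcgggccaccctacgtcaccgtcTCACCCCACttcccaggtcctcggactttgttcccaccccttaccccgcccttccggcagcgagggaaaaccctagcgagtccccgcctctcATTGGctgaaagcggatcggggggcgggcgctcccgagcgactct
Idi1, chr13:8885506-8885605, plus strand: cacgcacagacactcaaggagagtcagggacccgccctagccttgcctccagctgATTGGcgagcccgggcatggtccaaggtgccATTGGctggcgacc
Lss, chr10:76531465-76531564, plus strand: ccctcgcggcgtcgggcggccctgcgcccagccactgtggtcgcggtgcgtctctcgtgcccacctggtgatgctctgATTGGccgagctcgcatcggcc
Cyp51, chr5:4104698-4104797, minus strand: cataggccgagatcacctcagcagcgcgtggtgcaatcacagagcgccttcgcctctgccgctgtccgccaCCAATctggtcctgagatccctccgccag
The element TCACNCCAC was found in 1 of the 6 members, Hmgcs1, where it starts 137 bases before the start site (position -137), and in 1.24% of the 32851 promoters of the reference table. The box CCAAT was found in 6 of the 8 promoter entries of these members, at least 1 for each member, and in 37.4% of those promoters. Dhcr7 has 3 entries, of which 1 holds the box. These matches describe letters in windows of fixed length and are no evidence of binding. Elements with other letters or outside the windows were not searched for, so that a missing match does not show that an element is absent.

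Depth was even except for 1 pup. The reads recovered from the table were 30549126 in ChR2-flfl replicate 3 and up to 48711134 in the others. Avil itself, the gene whose promoter drives Cre, had 0.825 to 1.46 normalized reads (CPM after TMM scaling) in ChR2-flfl and 37.3 to 46.4 in Avil-ChR2 pups with no overlap between the genotypes. Markers of neurons, astrocytes, oligodendrocytes, microglia and endothelium had values in all pups except P2ry12 of microglia, which had none in any, and 3 of 4 choroid plexus markers (Ttr, Folr1, Clic6) were below 1 normalized read on average. The number of genes with a value differed between the runs, with 23914 to 24262 in pups 26 to 33 other than ChR2-flfl replicate 3 (23246) and 23379 to 23583 in pups 35 to 42.

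The first enzyme of the set, Hmgcs1, was the most abundant. Hmgcs1 makes HMG-CoA, a precursor of mevalonate. It had 1209, 1375 and 1487 normalized reads (lowest, median and highest) in ChR2-flfl and 1325, 1354 and 1404 in Avil-ChR2 pups. The Avil-ChR2 pups lay wholly inside the range of the controls. Per kilobase of its longest GENCODE transcript this was 393 normalized reads, and the other members had 15.8 (Lss) to 54.3 (Sqle) on this scale. Which transcript is used was not measured, so that these levels per length are approximate.

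Idi1, which turns isopentenyl diphosphate into its isomer, the building block of isoprenoids, had the lowest normalized reads of the set. It reached 57.0, 66.2 and 78.2 in ChR2-flfl and 60.8, 63.9 and 68.9 in Avil-ChR2 pups. The highest and the lowest pups were both controls. Fdft1, squalene synthase, commits isoprenoids to sterols. Its normalized reads were 140, 153 and 160 in ChR2-flfl and 148, 152 and 161 in Avil-ChR2 pups, with overlapping groups. Its 3' end shares 774 bp with Ctsb on the other strand, which had 315 normalized reads on average, and whether the counting used strand is not stated.

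Sqle oxidizes squalene and is the second control point of the pathway. Sqle had 229, 239 and 251 normalized reads in ChR2-flfl and 234, 243 and 271 in Avil-ChR2 pups. Only Avil-ChR2 replicate 1 was above all controls. Lss closes the ring to lanosterol, the first sterol. It had 97.4, 111 and 126 normalized reads in ChR2-flfl and 105, 109 and 116 in Avil-ChR2 pups. Again the controls held both extremes.

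Cyp51 removes the methyl group at carbon 14 of lanosterol, and Dhcr7 carries out a last step, the reduction of 7-dehydrocholesterol. Normalized reads of Cyp51 were 178, 185 and 206 in ChR2-flfl and 181, 187 and 194 in Avil-ChR2 pups. Those of Dhcr7 were 86.2, 91.4 and 96.7 in ChR2-flfl and 87.5, 90.2 and 97.5 in Avil-ChR2 pups. For Cyp51 the Avil-ChR2 pups lay wholly inside the wider range of the controls, and for Dhcr7 the genotypes overlapped over nearly the whole range. Each of the 7 measured members rested on at least 2098 reads per pup, the lowest being Idi1 in ChR2-flfl replicate 3. Counting error alone gives a coefficient of variation, averaged over the pups, of 0.396% (Hmgcs1) to 1.82% (Idi1). The coefficients of variation observed over all 16 pups were 3.64% (Fdft1) to 7.74% (Idi1), above counting error for these genes, and how much of that comes from library preparation was not measured.

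**Figure D1:**
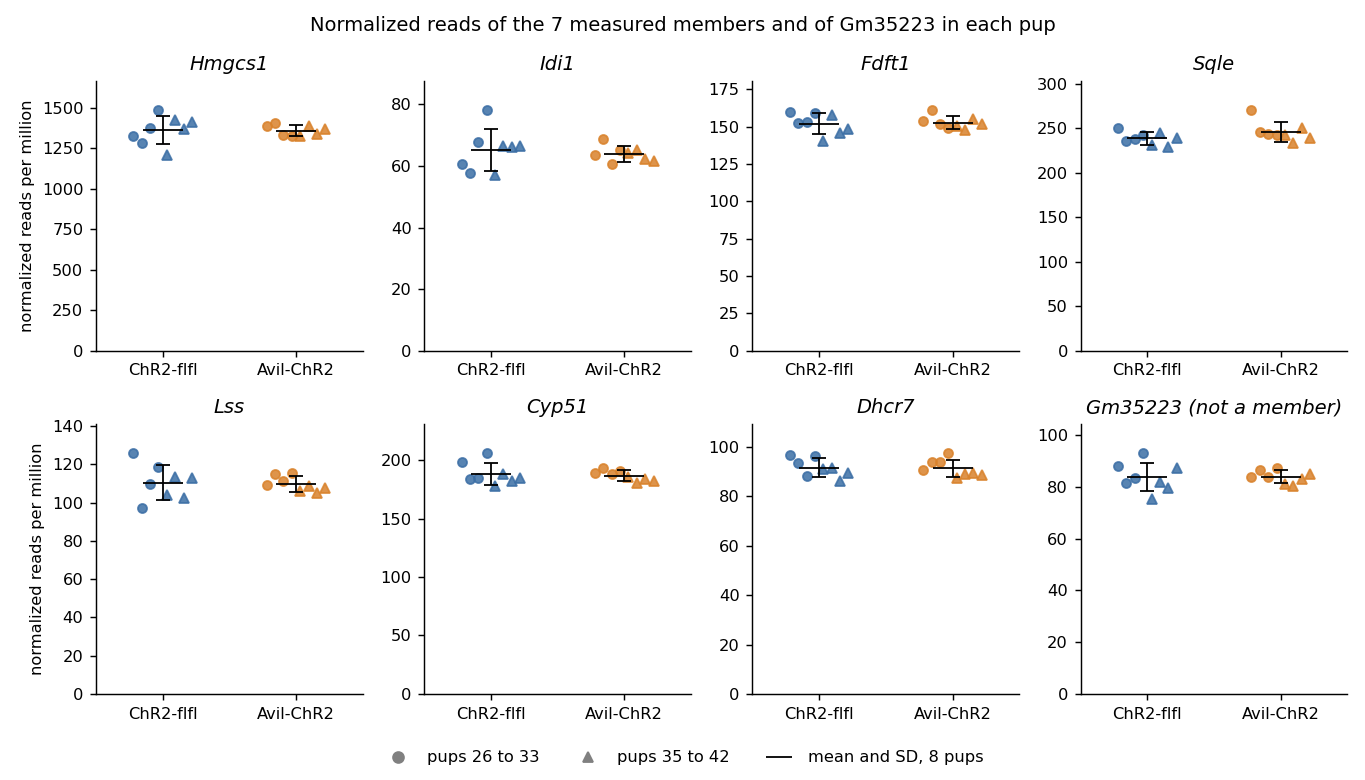
Normalized reads (CPM) of the 7 measured members and of Gm35223, which is not a member, in each pup. Circles are pups 26 to 33 and triangles pups 35 to 42, bars are the mean and SD of 8 pups, and each axis starts at 0. The genotypes overlap in every panel, and the ChR2-flfl points of Hmgcs1, Idi1 and Lss are more widely spread than the Avil-ChR2 points.

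Insig1 could not be described. Its entry (chr5:28071412-28078662, plus strand) had no value in any of the 16 pups. It lies wholly inside Gm35223 (chr5:28005942-28123931, minus strand), a long noncoding RNA predicted by an annotation pipeline, which had 75.3 to 93.1 normalized reads. In the whole table, 93.7% of 3604 entries that lie inside an entry of the opposite strand were without a value in every pup, against 15.9% of the 33326 other entries. Among entries with a Gene Ontology term the shares were 89.2% of 668 and 10.8% of 21198. An empty cell of Insig1 was therefore not read as absence of its RNA. How reads of nested genes were assigned was not tested and is not stated. Vldlr, a receptor on the list of uptake genes, was likewise without a value in all pups.

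The comparison of genotypes sets light-sensitive pups with Avil-Cre against pups without Cre. All pups were exposed to blue light, so that effects of light-evoked activity and of the transgene itself cannot be told apart. None of the 7 measured members passed the test between genotypes. The log2 differences, Avil-ChR2 minus ChR2-flfl, were -0.0011 (Hmgcs1), -0.018 (Idi1), 0.0061 (Fdft1), 0.042 (Sqle), -0.0065 (Lss), -0.010 (Cyp51) and -0.0042 (Dhcr7). Their standard errors were 0.028 to 0.051 and adjusted p-values by limma over all genes were 0.945 to 0.9997 (n = 8 pups per genotype). The 95% intervals reached from -0.12 to 0.10 at their widest ends, so that larger differences of the mean are outside the intervals of all 7. Exact permutation tests of the means, with both sides counted, gave p = 0.135 for Sqle and 0.724 to 0.977 for the others. Of all genes, 2 of 21183 genes (0.00944%) passed an adjusted p of 0.05, Avil and the methionyl-tRNA synthetase Mars. At an unadjusted p under 0.05 there were 0 of 7 members and 5.41% of all genes.

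Within pups 26 to 33 the differences of the members were -0.025 (Idi1) to 0.053 (Sqle), and within pups 35 to 42 they were -0.017 (Lss) to 0.032 (Fdft1). None was called in either run. Sqle was the only member with the higher mean in Avil-ChR2 pups in both runs and in every leave-one-out fit (0.022 to 0.052), and its 95% interval over all pups included 0.

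No other gene of the pathway passed either. Of 47 genes on 6 lists, 46 could be tested and 0 passed at an adjusted p of 0.05 (adjusted p by limma 0.825 to 0.9997). Their median log2 difference was 0.010, beside 0.0020 over all genes tested. All 7 other genes of the mevalonate branch had small positive differences, from 0.00028 for mevalonate kinase (Mvk) to 0.044 for phosphomevalonate kinase (Pmvk). Standard errors were 0.055 for Mvk and 0.030 for Pmvk, and 5 of the 7 measured members had negative differences. After lanosterol, 6 of 8 were positive, from -0.057 for the lamin B receptor Lbr, also a sterol reductase, to 0.12 for the sterol isomerase Ebp.

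Among genes of sterol sensing, the highest difference was 0.047 for the protease Mbtps1, and Srebf2 itself differed by 0.023. Among 8 measured genes of uptake and transport, differences were -0.25 for the lipoprotein receptor Lrp1 to 0.066 for the lysosomal sterol carrier Npc2. Lrp1 lies on chromosome 10, which also holds Avil, and whether its position plays a part in its difference was not tested. In efflux and turnover they were -0.10 for the exporter Abca1 to 0.046 for Cyp46a1, the neuronal enzyme that makes 24-hydroxycholesterol. In fatty acid synthesis they were -0.052 for the synthase Fasn to 0.043 for the desaturase Scd1. At an unadjusted p under 0.05, Ebp and the reductase Tm7sf2 (0.074) were higher, and Lrp1 and Abca1 were lower, 4 of 46 genes beside 5.41% of all genes.

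**Figure D2:**
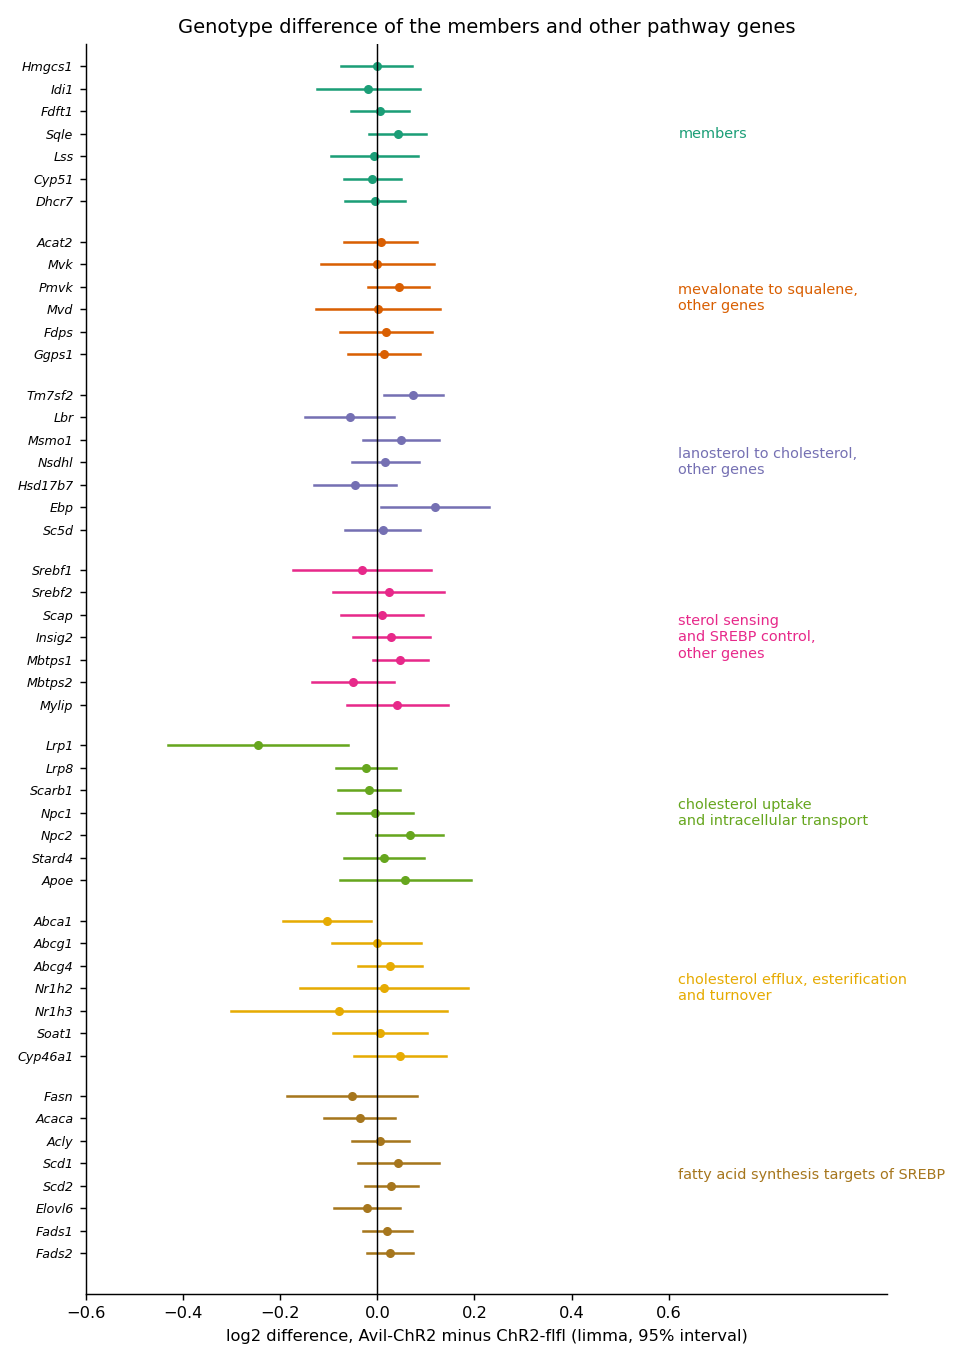
Log2 difference, Avil-ChR2 minus ChR2-flfl, of the 7 members and 42 other pathway genes, with 95% intervals from limma, ordered by list. Members lie within -0.12 to 0.10 with their intervals, and the intervals of Lrp1, Abca1, Ebp and Tm7sf2 leave out 0 before adjustment.

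Neither sex nor the pup number run gave a called member. Between males and females by the labels 0 of 7 passed (adjusted p by limma at least 0.988) beside 0.0425% of all genes, and 0 of 7 had an unadjusted p under 0.05 beside 4.46%. In the interaction of genotype and sex 0 of 7 passed beside 0% of all genes, and 0 of 7 had an unadjusted p under 0.05 beside 4.31%. With the sex given in the supplement, 11 of 21183 genes passed between the sexes, beside 9 with the labels. In the interaction 0 genes passed with that record. Between the runs, all 7 members had the lower mean in pups 35 to 42, by log2 differences of -0.012 (Hmgcs1) to -0.074 (Dhcr7). Dhcr7 had 93.9 ± 3.18 normalized reads in pups 26 to 33 and 89.2 ± 1.76 in pups 35 to 42 (SD, n = 8 each), with an unadjusted p of 0.00761 and an adjusted p of 0.214 by limma. Cyp51 had 192 ± 7.37 and 183 ± 3.11, with an adjusted p of 0.273. Thus 0 of 7 members passed the adjusted test, beside 26 genes of the table (0.123%), and 2 of 7 were lower at an unadjusted p under 0.05, beside 6.74% of all genes lower and 12.5% in either direction. Signs of the Hmgcs1 and Idi1 differences turned when single controls were left out. The interaction of genotype and run gave 0 of 7 members and 0% of all genes, and at an unadjusted p under 0.05 it gave 0 of 7 members and 3.04% of all genes.

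Levels of most members moved together from pup to pup. Correlations were taken over the 16 pups after the mean of each genotype had been removed. The 21 pairs of the 7 measured members had a median Pearson r of 0.519, and 20 of 21 were above 0. An r of at least 0.5 was found in 11 of 21 pairs, beside 7.11% of all pairs of the 15137 genes with a mean of at least 1 normalized read, whose median r was -0.0033. After correction over 21 pairs, 5 pairs passed a permutation test at an adjusted p of 0.05. The lowest r among them was 0.589, and 7.17% of all pairs of genes had an r at least as far from 0. The 7 further pairs, those with Insig1, have no value.

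Hmgcs1 and Idi1, both upstream of squalene, had the highest correlation. Their Pearson r was 0.873 (permutation p = 0.00035, adjusted p = 0.00735) and Spearman's rho was 0.812 (permutation p = 0.00113). It was 0.757 without the 2 pups farthest from the median of Hmgcs1 (deviations kept from the means of all 16 pups), 0.936 within pups 26 to 33 and 0.913 within pups 35 to 42. This pair was the only one that passed once run means had also been removed (r = 0.874, permutation adjusted p = 0.00672).

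The other called pairs joined enzymes from squalene onward. For Lss and Cyp51, which act in succession on the sterol ring, r was 0.766 (permutation p = 0.00271, adjusted p = 0.0142) and rho was 0.841 (permutation p = 0.00029). It was 0.811 without the 2 pups farthest in Lss, 0.779 in pups 26 to 33 and 0.591 in pups 35 to 42. For Fdft1 and Cyp51, r was 0.762 (permutation p = 0.00219, adjusted p = 0.0142) and rho 0.732 (permutation p = 0.00323), with 0.689 without 2 pups and 0.676 and 0.842 within the runs.

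For Cyp51 and Dhcr7, r was 0.727 (permutation p = 0.00157, adjusted p = 0.0142) and rho 0.700 (permutation p = 0.00391). It was 0.606 without 2 pups and 0.662 within pups 26 to 33 but 0.023 within pups 35 to 42. For Sqle and Fdft1, r was 0.589 (permutation p = 0.0113, adjusted p = 0.0473) and rho 0.776 (permutation p = 0.00116), with 0.747 without 2 pups and 0.324 and 0.832 within the runs.

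Between the 2 ends of the pathway, correlations were the lowest of the 21. Hmgcs1 and Dhcr7 had an r of -0.00024, and Idi1 and Dhcr7 had 0.078 (permutation p = 0.999 and 0.798). Without the 2 pups farthest from the median they were -0.346 and -0.298. Within pups 35 to 42 they were -0.158 and -0.384, and within pups 26 to 33 they were -0.052 and 0.064. Relations between the early enzymes and Cyp51 rested on 2 pups: r of Hmgcs1 and Cyp51 went from 0.523 to -0.086, and that of Idi1 and Cyp51 from 0.590 to -0.0035, without the 2 pups farthest from the median. Cyp51 had the highest mean r with the 6 other members (0.648), a value reached by 1 of 15130 other genes. Fdft1 followed with 0.567 and Lss with 0.548, values reached by 0.212% and 0.317% of other genes. Hmgcs1 had 0.451, Idi1 0.424, Sqle 0.372 and Dhcr7 0.364, and these were reached by 2.18%, 3.28%, 6.43% and 7.34% of other genes. The means of Hmgcs1 and Idi1 include their pair with each other (0.873) and lean on the same 2 pups. Without the 2 pups farthest from the median, r with Fdft1 went from 0.569 to 0.111 for Hmgcs1 and from 0.439 to -0.040 for Idi1.

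**Figure D3:**
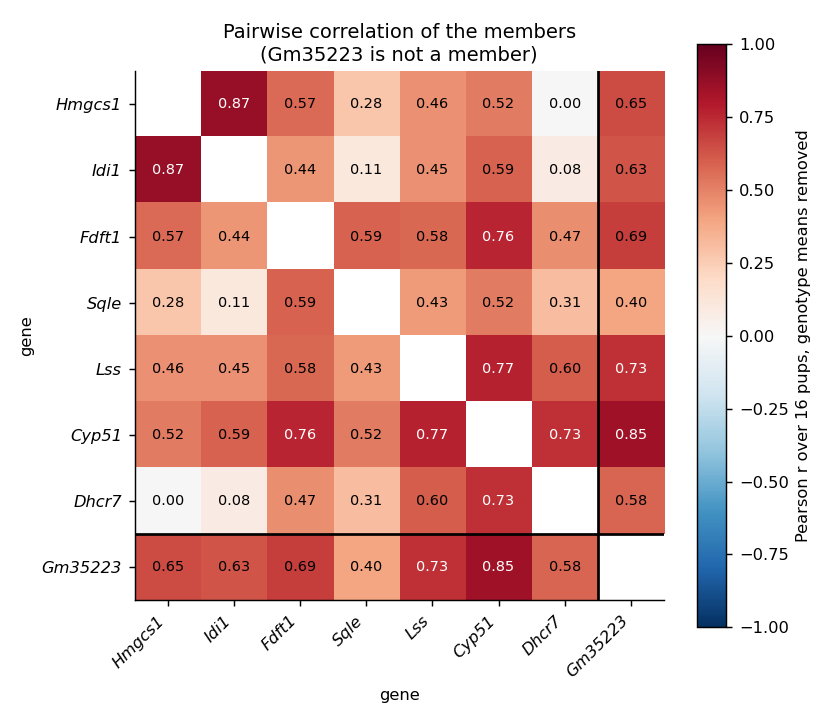
Pearson r of each pair of the 7 members over 16 pups after removal of genotype means, with Gm35223 in the last row and column, as colour from -1 (blue) to 1 (red) and as a number. Hmgcs1 pairs with Idi1 (0.87), and Cyp51 pairs with Fdft1, Lss and Dhcr7 (0.73 to 0.77), whereas Hmgcs1 and Idi1 are near 0 with Dhcr7.

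A few pups carried much of the common movement. In ChR2-flfl replicate 4 all 7 members were above their genotype mean, by 0.115 on average on the log2 scale and by 0.27 for Idi1. In ChR2-flfl replicate 5 none of the 7 was above it, and the mean deviation was -0.097. Among Avil-ChR2 pups, replicate 2 had all 7 above (mean 0.057). Without both of these controls, and with genotype means taken anew from the pups left, the median r of the 21 pairs was 0.307, 7 pairs had an r of at least 0.5 and 15 were above 0. The pairs Hmgcs1 and Idi1 (0.772), Lss and Cyp51 (0.783), Cyp51 and Dhcr7 (0.781), Fdft1 and Cyp51 (0.694) and Sqle and Fdft1 (0.578) were still positive without them.

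Within ChR2-flfl pups alone the median r was 0.611 and 3 pairs passed, Hmgcs1 with Idi1 (0.923), Sqle with Fdft1 (0.858) and Sqle with Lss (0.869). Within Avil-ChR2 pups alone it was 0.389 and none passed, the highest being Lss with Dhcr7 (0.904, permutation adjusted p = 0.05, not under the threshold). The difference between genotypes in these correlations was not tested.

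**Figure D4:**
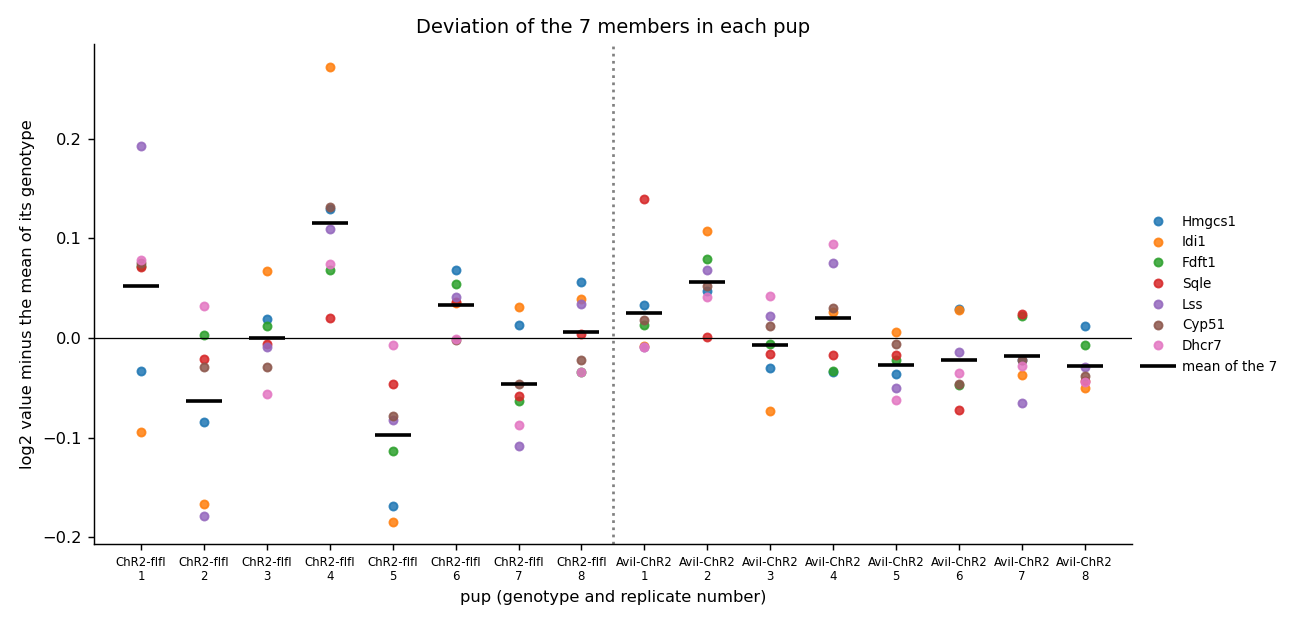
Deviation of each member from the mean of its genotype (log2) in each of the 16 pups, with the mean of the 7 members as a black bar. ChR2-flfl replicate 4 has all 7 above 0 and replicate 5 all 7 below, and deviations are smaller in most Avil-ChR2 pups.

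The spread between pups was compared as well, and no difference passed. The SD of log2 values in ChR2-flfl was larger than in Avil-ChR2 pups for 6 of 7 members, by ratios of 2.75 for Hmgcs1, 2.61 for Idi1, 2.34 for Lss, 2.01 for Cyp51, 1.69 for Fdft1 and 1.11 for Dhcr7, and was smaller for Sqle (0.680). Exact permutation tests of the spread, with both sides counted, gave p = 0.0578 (Lss) to 0.889 (Sqle), none under 0.05. Over all genes, 63% had the larger SD in ChR2-flfl pups, the median ratio was 1.14 and 8.87% had a ratio above 2. Of the members, Hmgcs1, Idi1, Lss and Cyp51 were above 2 (4 of 7). In ChR2-flfl replicate 4 all of these lay above the genotype mean, by log2 deviations of 0.11 (Lss) to 0.27 (Idi1). Their ratios are therefore not separate observations.

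Genes most like the set were found by their mean r with the 7 members, among 15130 other genes. Because the ranking chose them, their values are given without a test. The first was Stard4 (0.688), a carrier of cholesterol between membranes. Among the next were Hsd17b7 (0.676), a sterol ketone reductase, Idh1 (0.655), a cytosolic source of NADPH, Acat2 (0.655), which makes acetoacetyl-CoA, and the signalling inhibitor Socs6 (0.650). Gm35223, the entry that spans Insig1, was also among them (0.648), as were the ubiquitin ligase Rnf182 (0.636), Msmo1 (0.633), an oxidase that acts on sterols later than Cyp51, and the transcription factor Nfe2l3 (0.633).

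Of these, Stard4, Hsd17b7, Acat2 and Msmo1 were on the pathway lists. Stard4 and Cyp51 had an r of 0.937. The order depended on ChR2-flfl replicates 4 and 5. Without them Idh1 had rank 1, Hsd17b7 rank 3, Acat2 rank 5 and Nfe2l3 rank 6, whereas Stard4 went to rank 12 (0.521), Rnf182 to 17, Msmo1 to 50, Socs6 to 53 and Gm35223 to 100. With run means removed, Stard4 had rank 2, Hsd17b7 rank 3 and Acat2 rank 6, and the other 6 genes named here had ranks 11 (Idh1) to 40 (Msmo1). Lowest of all genes were Osbp2 (-0.670), of the oxysterol-binding family, Plcd3 (-0.663), a phospholipase, and Dlg4 (-0.632), which encodes the postsynaptic scaffold PSD-95.

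Gm35223 was correlated with Cyp51 at r = 0.850 (permutation p = 0.00011, adjusted over 7 members 0.00077) and rho = 0.756 (permutation p = 0.00195), and at 0.679 without 2 pups. Its r with the other members was 0.397 (Sqle) to 0.728 (Lss). For Hmgcs1 and Idi1 it went from 0.652 and 0.631 to 0.068 and 0.058 without 2 pups. Whether reads of Insig1 are counted in Gm35223 was not tested.

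By list, other enzymes after lanosterol were nearest to the members, with a median of their mean r of 0.546, beside 0.0038 for all genes. Of those, 5 of 8 (Hsd17b7, Msmo1, Sc5d, Nsdhl and Lbr) were in the top 5% of genes (756), whereas Ebp (0.0060) and Tm7sf2 (-0.075) were not. In the mevalonate branch, 3 of 7 were in the top 5%, Acat2 and Fdps among them, and the median was 0.294. The fatty acid enzymes Elovl6, Scd2 (0.488) and Acly (0.446) were also there (3 of 8, median 0.364). With run means removed only 2 of 8 were, and Scd2 (rank 1647) and Acly (rank 1158) no longer, while without ChR2-flfl replicates 4 and 5 it was 4 of 8. Of genes of uptake and intracellular transport, 2 of 8 were there, the carrier Stard4 among them, and the median was 0.0085. Once run means were removed it was 1 of 8, Stard4.

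Regulators of the pathway were not among the genes most like it. Median mean r was 0.015 for the 8 genes of sterol sensing, of which 0 were in the top 5%. Srebf2 mRNA had a mean r of 0.073 with the members, made up of 0.590 with Dhcr7 and 0.402 with Sqle but -0.434 with Hmgcs1 and -0.557 with Idi1. Scap had -0.187, with -0.697 for Idi1. Genes of efflux had a median of -0.042, also with 0 of 7 in the top 5% (1 without ChR2-flfl replicates 4 and 5), and the lowest was the exporter Abcg4 (-0.430).

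**Figure D5:**
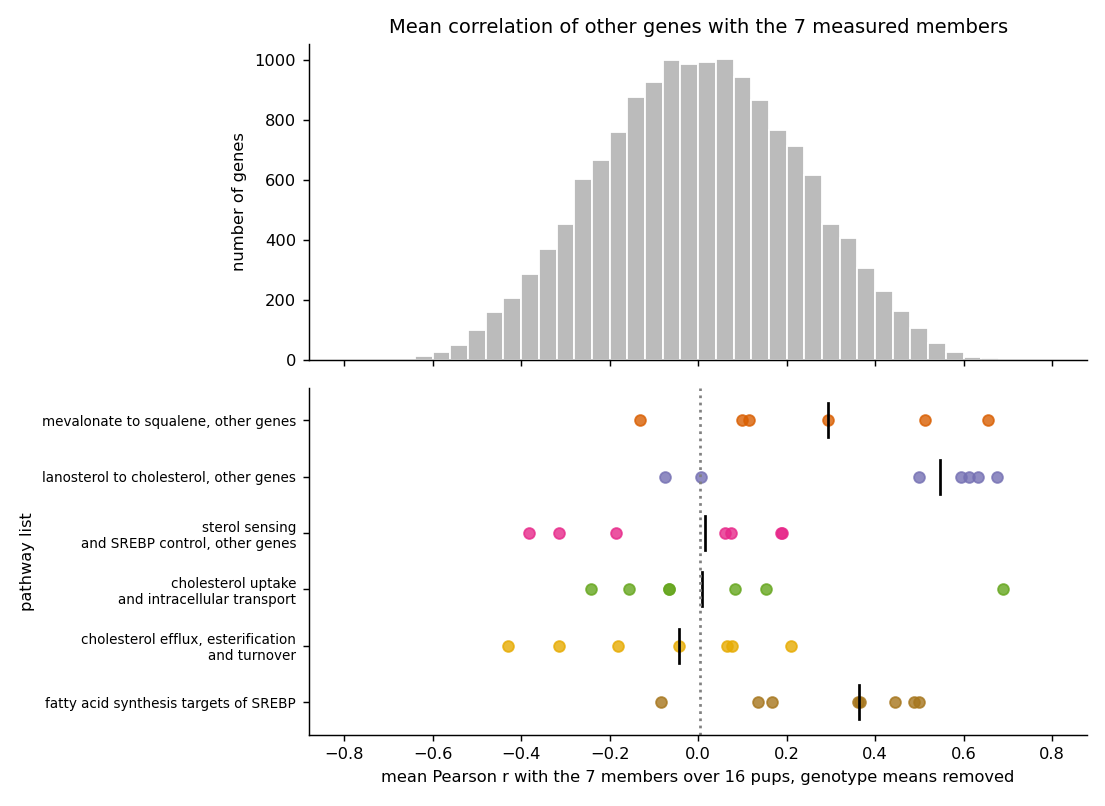
Upper panel, number of genes by mean Pearson r with the 7 members over 16 pups with genotype means removed (15130 genes). Lower panel, the same value for 42 genes of the 6 pathway lists, with the median of each whole list as a black line and the median of all genes as a dotted line. Enzymes after lanosterol have a median of 0.546, and genes of sterol sensing and of efflux lie around 0.

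Relations of the members to cell type markers and library measures ranged from an r of -0.612 (Hmgcs1 with neuron markers) to 0.847. Of 77 relations of the 7 members with 8 marker lists and 3 library measures, 8 had an unadjusted permutation p under 0.05 and 1 passed adjustment over all 77. That was Dhcr7 with the number of genes with a value (r = 0.847, permutation p = 9e-05, adjusted p = 0.00693, rho = 0.718, permutation p = 0.00325, r without 2 pups 0.777). This r was 0.824 within pups 26 to 33 and -0.398 within pups 35 to 42. For Cyp51 it was 0.752 (permutation adjusted p = 0.0685), with 0.579 and 0.108 within the runs. The part of this measure in the correlations of Dhcr7 and Cyp51 was not tested.

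Microglia markers had a median r of -0.460 with the members, with a range of -0.609 (Lss) to 0.026. Of 5 markers 4 passed the filter, P2ry12 did not, and their summed level was 48.2 to 77.5 normalized reads in ChR2-flfl and 59.0 to 73.5 in Avil-ChR2 pups. Neuron markers had a median r of -0.419 and astrocyte markers of -0.259, with all 6 markers of each list detected. Their ranges were -0.612 (Hmgcs1) to 0.234 (Dhcr7) and -0.533 (Lss) to -0.129 (Idi1). Summed astrocyte markers were 738 to 910 normalized reads in ChR2-flfl and 826 to 933 in Avil-ChR2 pups, and summed neuron markers were 4022 to 4489 and 4138 to 4439. Oligodendrocyte precursor markers had a median r of 0.245 and myelin markers of 0.079, with opposite signs among the members. Precursor markers had 0.560 with Sqle and 0.528 with Dhcr7 but -0.451 with Idi1 and -0.356 with Hmgcs1. Myelin markers had -0.359 (Hmgcs1) to 0.443 (Sqle). None of these marker relations passed adjustment (permutation adjusted p at least 0.431 for each), and their part in the co-variation was not tested. In bulk cortex, fewer cells of a type and less RNA per cell cannot be told apart.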

How the data were processed

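Total RNA of 16 cortices was made into TruSeq stranded mRNA libraries. Per the paper's methods, the authors kept reads of 50 bp or longer, used SeqMan NGen 17 for alignment to the mm10 build (GRCm38) and ArrayStar 17 for gene values, and scaled reads by TMM (edgeR). The deposited table itself holds values read here as TMM-scaled CPM on a linear scale, 1 column per pup, with cells left empty where no value is given. Imputation of missing values, which the methods name, was not used here. All columns of values were used (0 left out). Reads per pup, recovered from the step of 1 read, were 30549126 to 48711134. No molecular identifiers were used, so that depth sets counting error only.

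Values were log2 transformed, and empty values or values below -5 were set to -5. Genes above -5 in at least 12 of 16 pups were kept (21183). Genotype, sex and pup number run were compared with limma 3.58.1 in R 4.3.3 (lmFit, eBayes with trend), and p-values were adjusted over all genes tested (Benjamini-Hochberg). Pups are separate animals, but their litters are not given in the labels. Correlations were tested with 100000 permutations of pups within genotype, in scripts tested on simulated data. For single genotypes or runs all permutations were used. Promoters are RefSeq (GRCm38.p6), transcript lengths GENCODE. Members, gene lists and tests were chosen with earlier results of these data known. Named genes were the members, in each pathway list the genes past the adjusted threshold or else those with the lowest and highest difference, and the 10 most and 3 least alike genes with a mean log2 of at least 0. Other genes of the lists were named after their values were seen. Some of the genes that this rule picked are not reported here.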

Additional observations from a re-analysis of the deposited data

Results flagged for a closer look

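Sqle in Avil-ChR2 replicate 1 had 271 normalized reads, and its gap to the next pup of its genotype was 0.563 of the range of the 8 pups, above the 95% critical value of 0.526 for 8 values. It was the only value of this kind among 16 groups examined (the 7 members and Gm35223 in each genotype), and chance alone gives about 1 such group in 20.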

How the results depend on the processing

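No member and no other pathway gene was called between genotypes under any alternative run (low-value filters, a pseudocount of 1, quantile normalization, median centring, sex or run as covariate, each run alone, each pup left out). The sex given in the paper's supplement was also tried as covariate, with the same outcome. Differences near 0 changed sign in places. Hmgcs1 was 0.012 with quantile normalization, 0.00084 with median centring and 0.0025 in pups 35 to 42 only. In pups 26 to 33 only, Fdft1 was -0.020, Lss 0.0044 and Dhcr7 0.0059. With each pup left out in turn, Hmgcs1 ranged from -0.025 to 0.017, Idi1 from -0.045 to 0.021, Fdft1 from -0.010 to 0.016, Lss from -0.032 to 0.021, Cyp51 from -0.021 to 0.0086 and Dhcr7 from -0.018 to 0.0070. Between the runs, Hmgcs1 ranged from -0.026 to 0.013 and Idi1 from -0.061 to 0.0064. Of the whole table, 2 genes were called, 3 with run as covariate, and 1 was called with median centring, in pups 26 to 33 only, in pups 35 to 42 only and with the replicate block, and 1 to 2 with each pup left out (1 without any of ChR2-flfl replicates 1, 2, 3, 5, 6 or 8, or Avil-ChR2 replicates 1, 2, 4 or 8). Replicate numbers did not pair the pups (same-number correlations -0.344 to 0.390, 3 of 8 over 0.1, 1 best with its own number), and the block called no member. The median r of the pairs was 0.307 without ChR2-flfl replicates 4 and 5, chosen after seeing the data, and 0.383 to 0.566 with each pup left out. Of the pairs, 1 passed with run means removed, 8 with the principal component removed, 3 in ChR2-flfl pups only, 0 in Avil-ChR2 pups only and 0 in either run only, and 4 to 7 with each pup left out. Fewer pups enter the fits of 1 genotype or 1 run. The causes of the other changes were not tested. The edgeR test on recovered reads was not run. At this depth counting error is small, and the number of pups limits the precision.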
